A study of Mus musculus with 9 samples.

Results

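Versican, the large proteoglycan that fills the valve matrix together with hyaluronan, was followed with its partners in mouse valvular interstitial cells (VICs) in culture. VICs are the fibroblast-like cells that make and repair the matrix of heart valve leaflets. The genes were Vcan itself, the hyaluronan synthases Has1 and Has2, the hyaluronan receptor Cd44, the link protein Hapln1, and the ADAMTS metalloproteases Adamts1, Adamts2, Adamts4, Adamts5 and Adamts9. The choice was by symbol, with no threshold on a measured value but with earlier results of these data known, and all 10 were found among the 51810 genes of the deposited table. All 10 also averaged 1 TPM or more, as did 13495 genes in all, and these were the genes tested. TPM is a gene's share of the transcripts of a library, scaled to a fixed total after correction for gene length, so levels of different genes can be set side by side.

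The mice were C57BL/6J, with no other genotype and no age given, and both aortic and mitral valves supplied cells. Of 9 libraries, 3 were from cells given oxidised low-density lipoprotein (oxLDL) and 3 from cells given native low-density lipoprotein (LDL), each at 50 ug/mL. The other 3 were from cells given buffer (Control), which the labels also call untreated. Treatment lasted 24 h at 37 °C and 5% CO2. The culture medium shared by all 3 groups was DMEM with 10% fetal bovine serum, insulin at 5 ug/mL, basic FGF at 0.5 ng/mL and EGF at 2 ng/mL, and the labels do not say whether the serum stayed during treatment. The labels do not say whether same-treatment libraries came from separate cultures or mice, so p-values reflect only how far these libraries spread, which may be technical.

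Hyaluronan is an unbranched sugar polymer that HAS enzymes spin out through the plasma membrane. Versican binds it through a domain at one end, a link protein such as HAPLN1 locks that bond, and cells hold the resulting gel through CD44. ADAMTS1, ADAMTS4, ADAMTS5 and ADAMTS9 cut versican and related proteoglycans, whereas ADAMTS2 trims the amino-terminal propeptide from procollagen. In mice the hyaluronan and versican gel fills the endocardial cushions that become the valves, Has2 is needed for those cushions to form, and valves lacking Adamts5 retain versican and grow thick.

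TPM keeps no read depth, so no counting interval can be given, and the libraries list 20985 to 21433 genes above 0. All 13 fibroblast markers were listed above 0 in every library, with summed levels of 11995 to 14432 TPM, and Vim and Dcn led them. The 9 endothelial markers summed to 202.8 to 472.9 TPM and the 9 macrophage and leukocyte markers to 98.5 to 629 TPM. Smooth muscle and pericyte markers (6 genes) reached 75.8 to 153 TPM, the 9 cardiomyocyte markers 10.3 to 65.4 TPM and the 6 melanocyte markers 3.3 to 20.2 TPM. Single genes held most of some sums. These were Lyz2 (mean 338 TPM) for macrophages and leukocytes and Tnnt2 (24.3 TPM) for cardiomyocytes. Smtn and Rgs5 (69.7 and 33.9 TPM) together held most of the smooth muscle and pericyte sum. In such bulk libraries fewer cells of a type and less RNA per cell cannot be told apart. The replicate numbers of the labels paired the libraries, and each comparison is given without the number and, where a call changes, with the number as a block.

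The receptor and the proteoglycan were the most abundant of the 10 transcripts and the synthase Has1 was the least. Cd44 averaged 169 ± 12.8 TPM over the 9 libraries (SD, n = 9), above 93% of tested genes, and Vcan 122 ± 28 TPM. Among the proteases Adamts1 averaged 117 ± 19.1 TPM, Adamts2 74.2 ± 8.59 TPM, Adamts5 56.9 ± 17.3 TPM and Adamts9 22.7 ± 5.98 TPM. Has2 averaged 11.8 ± 3.63 TPM, Adamts4 3.52 ± 0.853 TPM, Hapln1 3.34 ± 0.896 TPM and Has1 1.51 ± 0.461 TPM, the last above only 5.26% of tested genes. Down this order every gene lay above its neighbour in 9 of 9 libraries except at 3 places. Vcan lay above Adamts1 in 5 of 9 libraries, Adamts2 above Adamts5 in 7 of 9, and Adamts4 above Hapln1 in 6 of 9, so these neighbours were not ordered beyond their spread. No library listed any of the 10 genes at 0.

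**Figure D1:**
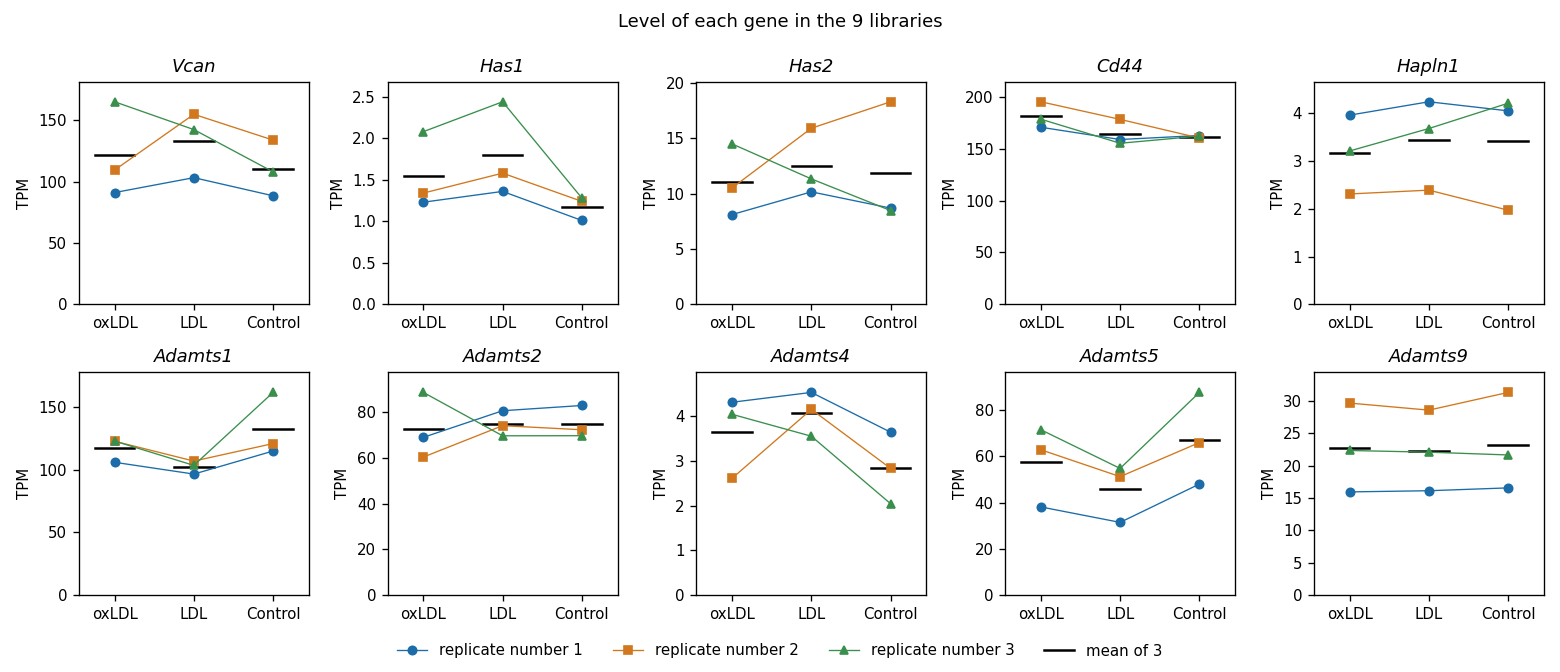
Level in TPM (y axis, from 0) of each of the 10 genes in the oxLDL, LDL and Control libraries (x axis), with lines joining libraries of the same replicate number and bars at the mean of 3. Adamts5 was lower with LDL than in Control along all 3 lines, and the 3 lines of Adamts9 were nearly flat and far apart.

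The genes lie on 8 chromosomes of the mouse genome, and 4 of the 10 form close pairs. In GENCODE M21 (GRCm38) Adamts1 is at chr16:85793827-85803113 and Adamts5 at chr16:85856173-85901828, both on the minus strand with 53.1 kb between them, which hold 1 annotated gene and 0 protein-coding ones. Hapln1 at chr13:89539796-89611652 on the plus strand and Vcan at chr13:89655312-89742509 on the minus strand are 43.7 kb apart, with 0 genes between. The libraries did not mark strand, so reads of overlapping genes on opposite strands could not be told apart. Exons of Has2 share 182 bases with Has2os, listed at 0.26 to 1.32 TPM, and those of Adamts9 overlap A730049H05Rik and Gm15737, listed at no more than 2.17 and 0.1 TPM.

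The start regions of Adamts1, the most abundant of the proteases, and of Vcan, its substrate, are shown because the means of these genes lay on opposite sides of Control in the LDL libraries. Neither difference reached an adjusted p under 0.05 in limma, with or without the block. RefSeq start regions of GRCm38.p6, from 250 bases before the start to 50 bases from it on, were matched by symbol for 7 of the 10 genes. Capitals mark matches on either strand to any of 5 motifs searched. The GC box is GGGCGG. The CCAAT box and the TATA box (as TATAAA) are general promoter elements. The motif bound by AP-1 was searched as TGANTCA. The core of the antioxidant response element, bound by NRF2, was searched as TGACNNNGC.
Adamts1, chr16:85803064-85803363, minus strand: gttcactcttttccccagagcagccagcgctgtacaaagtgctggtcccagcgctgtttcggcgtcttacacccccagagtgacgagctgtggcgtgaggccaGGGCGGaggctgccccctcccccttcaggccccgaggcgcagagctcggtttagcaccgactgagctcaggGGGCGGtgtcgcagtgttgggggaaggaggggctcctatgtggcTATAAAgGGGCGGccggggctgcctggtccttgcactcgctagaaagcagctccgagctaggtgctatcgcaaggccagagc
Vcan, chr13:89742463-89742762, minus strand: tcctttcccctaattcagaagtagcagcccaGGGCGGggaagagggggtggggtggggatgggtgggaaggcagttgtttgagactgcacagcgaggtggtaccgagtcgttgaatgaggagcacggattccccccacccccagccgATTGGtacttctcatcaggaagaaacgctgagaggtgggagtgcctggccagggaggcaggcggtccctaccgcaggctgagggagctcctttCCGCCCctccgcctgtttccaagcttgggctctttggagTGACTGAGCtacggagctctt
The Adamts1 region holds 1 TATAAA that begins 32 bases before the start, and 3 GC boxes. The Vcan region holds 2 GC boxes, 1 CCAAT on the minus strand of the window and 1 match to TGACNNNGC that begins at base 30 from the start. Of 32851 mouse start regions of the same length, 35.7% hold a GC box, 37.4% a CCAAT box, 13.6% a TATA box, 12.4% the antioxidant core and 7.8% the AP-1 motif, the last found in neither region. A match is a description of these letters and not a binding site.

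LDL was set against Control to see how the hyaluronan and versican genes stood with the native lipoprotein. None of the 10 genes passed in limma without the block (0 of 10, where 0.333% of all tested genes passed), and 1 of 10 had an unadjusted p under 0.05, where 6.65% of tested genes did. With the replicate number as a block 1 of 10 passed, the protease Adamts5, which was lower with LDL, where 0.852% of tested genes passed. The groups did not overlap for 2 of 10 genes, Adamts1 (lower) and Has1 (higher), against 10.7% of tested genes. In 5 of 10 genes all 3 same-numbered pairs differed in one direction, against 35.4% of tested genes. The median log2 difference was 0.02 for the 10 genes and 0.00 for all tested genes.

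Adamts5, the protease tied to versican turnover in mouse valves, was at 31.4, 51.3 and 54.8 TPM with LDL (numbers 1 to 3), against 48, 66 and 87.8 TPM in Control. Each LDL library lay below the Control library of its number, by 0.60, 0.36 and 0.67 on the log2 scale, although the groups overlapped. The means were 45.8 ± 12.6 TPM with LDL and 67.3 ± 19.9 TPM in Control (SD, n = 3 each), a 1.47-fold lower level. The log2 difference was -0.54 (95% interval -1.22 to 0.14, adjusted p = 0.9 in limma). Without the block it was -0.30 without LDL 1 and -0.76 without Control 1, the ends of its range with 1 library left out. With the block and all 9 libraries its interval was -0.71 to -0.38 (adjusted p = 0.0195). With the block and 1 library left out, an alternative chosen after seeing the data, Adamts5 passed in 3 of 9 fits, those without oxLDL 2 (adjusted p = 0.0335), oxLDL 3 (0.029) or Control 2 (0.0148). It did not pass without LDL 1, 2 or 3 (0.0913, 0.09 and 0.161), without Control 1 or 3 (0.131 and 0.0887) or without oxLDL 1 (0.0597), and the log2 difference ran from -0.63 to -0.49 over the 9 fits. The oxLDL libraries stood between the other groups at every number, with 38.1, 62.9 and 71.6 TPM.

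Adamts1, the neighbour of Adamts5 on chromosome 16 and also a versican-cutting enzyme, was at 96.5, 107 and 103 TPM with LDL, against 115, 121 and 162 TPM in Control. All 3 LDL libraries lay below all 3 Control libraries, and the largest gap was at number 3, where Control was the highest of the 9. The means of 102 ± 5.29 TPM with LDL and 133 ± 25.5 TPM in Control (SD, n = 3 each) gave a log2 difference of -0.35 (95% interval -0.64 to -0.07) with an unadjusted p of 0.0201 in limma, short of the threshold once adjusted (adjusted p = 0.55, and 0.152 with the block). Without Control 3 the difference was -0.20. The oxLDL libraries, at 106, 123 and 123 TPM, lay above LDL at every number, and between LDL and Control at numbers 1 and 3. The ratio of Adamts1 to Adamts5 was 3.07, 2.09 and 1.89 with LDL, against 2.39, 1.83 and 1.84 in Control, and 2.78, 1.95 and 1.72 with oxLDL, highest at number 1 in each group.

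Markers of other cell types are given beside these differences. All 9 macrophage and leukocyte markers averaged higher with LDL than with buffer (median log2 difference 0.22, summed 219.2 to 620 TPM with LDL and 219.1 to 428 TPM in Control), with 0 passing in limma with or without the block and 0 at an unadjusted p under 0.05 without it. Of 9 endothelial markers 8 had a lower mean of log2(TPM + 1) with LDL (median difference -0.17), with the same counts of 0. By mean TPM Cdh5, one of the 8, was instead higher with LDL (62.8 TPM, against 61.8 TPM in Control). Emcn was higher with LDL on both scales (log2 difference 0.01, 63.7 TPM against 59 TPM in Control). The 9 endothelial markers summed to 211.6 to 473 TPM with LDL and 213 to 452 TPM in Control. The summed ranges of the LDL and Control libraries overlapped for both lists. None of these 18 markers was at 0 in any library. By log2(TPM + 1) all 3 tested melanocyte markers were higher with LDL (median 0.30), though Mlana was lower by mean TPM. Of 4 tested smooth muscle and pericyte markers 2 were higher and 2 lower (median 0.06). Tnnt2, the 1 cardiomyocyte marker tested, was lower (-0.42). The largest differences were those of Rgs5 (1.04) and Dct (1.02), and 0 of these markers passed, with or without the block. The part of all these markers in the differences of Adamts5 and Adamts1 was not tested.

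Adamts4, an aggrecan- and versican-cutting protease present at a low level, ran the other way. It was at 4.53, 4.15 and 3.55 TPM with LDL and at 3.64, 2.83 and 2.04 TPM in Control. LDL was higher at every number, yet LDL 3 lay below Control 1. The log2 difference was 0.42 (95% interval -0.03 to 0.87, adjusted p = 0.8 in limma, and 0.339 with the block), and 0.26 without Control 3.

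Adamts9 and Adamts2 stood close to Control. Adamts9, which cuts versican and is needed for normal valve shape in mice, was at 16.1, 28.6 and 22.1 TPM with LDL, against 16.6, 31.3 and 21.6 TPM in Control (log2 difference -0.05, 95% interval -0.70 to 0.61, and -0.18 to 0.09 with the block). Adamts2, the procollagen trimming enzyme, was at 80.7, 74.1 and 69.7 TPM with LDL and at 83, 72.3 and 69.7 TPM in Control (log2 difference 0.00, 95% interval -0.31 to 0.30).

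Vcan was at 103, 155 and 142 TPM with LDL, against 88.4, 134 and 108 TPM in Control. LDL was higher at each number, while the groups overlapped and the Vcan level differed more between numbers than between treatments. The means of 133 ± 26.9 TPM with LDL and 110 ± 22.8 TPM in Control (SD, n = 3 each) gave a log2 difference of 0.28 that did not pass (95% interval -0.27 to 0.82, adjusted p = 0.997 in limma, and 0.506 with the block). It was 0.13 without Control 1 and 0.45 without LDL 1. Set against the summed level of its 4 cutting enzymes (Adamts1, Adamts4, Adamts5 and Adamts9), Vcan stood at 0.694, 0.811 and 0.774 with LDL, against 0.483, 0.605 and 0.395 in Control. These ratios did not overlap between the groups, and they are a description of genes chosen with their values known, with no test. No share over ratios of other genes was computed. Adamts1 was the largest part of the sum in every library, and its own levels did not overlap between LDL and Control. The ratios with oxLDL were 0.554, 0.502 and 0.747.

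Has1, the lower of the synthases among the 10 genes, was at 1.36, 1.58 and 2.44 TPM with LDL and at 1.01, 1.24 and 1.28 TPM in Control. All LDL values lay above all Control values, and LDL 3 was the highest of the 9 libraries. The log2 difference was 0.34 (95% interval -0.10 to 0.78, adjusted p = 0.91 in limma, and 0.365 with the block), and 0.18 without LDL 3. Has2, the synthase of the embryonic valve cushions, was at 10.2, 15.9 and 11.3 TPM with LDL, against 8.69, 18.3 and 8.47 TPM in Control (log2 difference 0.13, 95% interval -0.56 to 0.82, adjusted p = 1). Its direction changed with the number, higher with LDL at numbers 1 and 3 and lower at number 2. Has2 exceeded Has1 in 9 of 9 libraries, by 7.47, 10.1 and 4.64-fold with LDL and by 8.6, 14.8 and 6.62-fold in Control.

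Cd44 was at 159, 178 and 155 TPM with LDL, against 163, 160 and 162 TPM in Control, and its log2 difference of 0.02 had a narrow interval (95% interval -0.15 to 0.19, adjusted p = 1 in limma). Hapln1 was at 4.24, 2.39 and 3.68 TPM with LDL and at 4.05, 1.97 and 4.21 TPM in Control (log2 difference 0.03, 95% interval -0.57 to 0.63, adjusted p = 1). Both groups were lowest at number 2 for Hapln1.

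**Figure D2:**
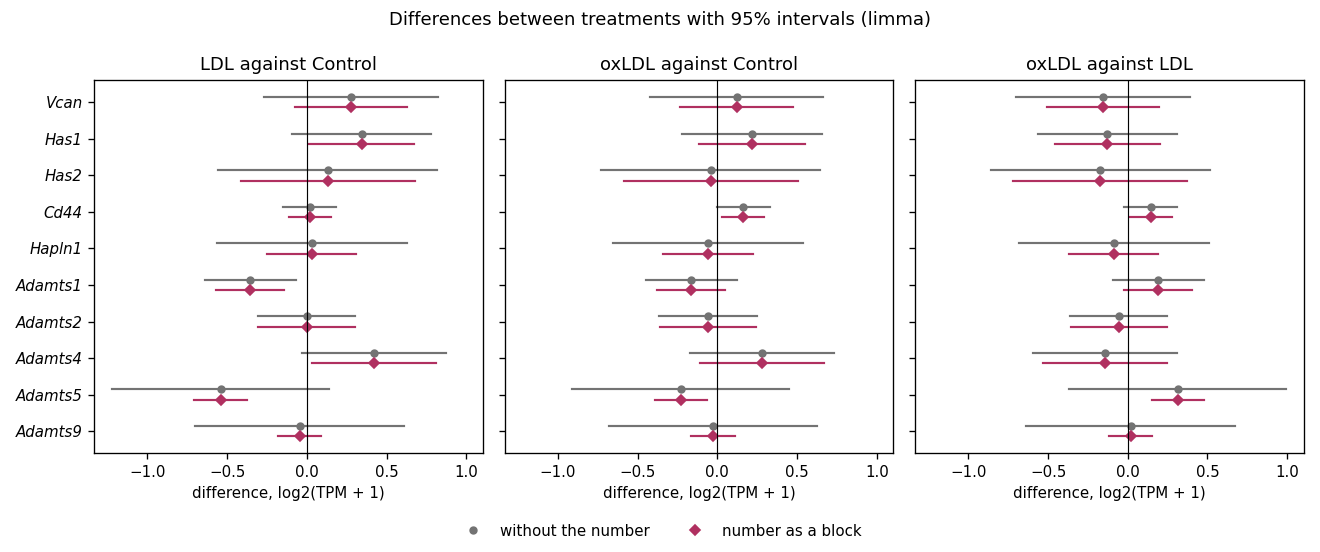
Difference in log2(TPM + 1) (x axis) for each of the 10 genes in the 3 comparisons, with 95% intervals from limma without the replicate number (grey) and with it as a block (red). With the block the interval of Adamts5 for LDL against Control ran from -0.71 to -0.38, and that of Adamts9 narrowed to -0.18 to 0.09.

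The comparison of oxLDL with Control asked the same of the oxidised lipoprotein, against the same 3 Control libraries. None of the 10 genes passed in limma (0 of 10, and 0 at an unadjusted p under 0.05, where 0.0148% of tested genes passed and 3.86% had such a p), and none passed with the block (0 of 10, where 0.126% did). The groups did not overlap for 1 of 10 genes, Cd44, against 7.33% of tested genes, and 3 of 10 kept one direction in all same-numbered pairs, against 27.1% of tested genes. The median log2 difference was -0.03 for the 10 genes and 0.00 for all tested genes.

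Cd44, the receptor that anchors the hyaluronan coat, was at 171, 195 and 178 TPM with oxLDL, against 163, 160 and 162 TPM in Control. Every oxLDL library lay above every Control library, and the Control values were close together. The means were 182 ± 12.6 TPM with oxLDL and 162 ± 1.27 TPM in Control (SD, n = 3 each), a 1.12-fold level. The log2 difference of 0.16 did not pass (95% interval -0.00406 to 0.33, adjusted p = 1 in limma, and 0.458 with the block).

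Vcan was at 91, 109 and 165 TPM with oxLDL, against 88.4, 134 and 108 TPM in Control (log2 difference 0.12, 95% interval -0.42 to 0.67, adjusted p = 1 in limma). The oxLDL value was well above its Control at number 3, below it at number 2 and close to it at number 1. Without oxLDL 3 the difference was -0.12. Has2 was likewise above its Control at number 3 and below it at number 2, with 8.11, 10.5 and 14.5 TPM with oxLDL against 8.69, 18.3 and 8.47 TPM in Control (log2 difference -0.04, 95% interval -0.73 to 0.65). Has1 was at 1.23, 1.34 and 2.08 TPM with oxLDL and at 1.01, 1.24 and 1.28 TPM in Control (log2 difference 0.22, 95% interval -0.22 to 0.65), higher at each number, and the difference was 0.0719 without oxLDL 3. Hapln1 was at 3.96, 2.31 and 3.21 TPM with oxLDL, against 4.05, 1.97 and 4.21 TPM in Control (log2 difference -0.06, 95% interval -0.65 to 0.54).

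Among the proteases Adamts5 was lower with oxLDL at each number, with 38.1, 62.9 and 71.6 TPM against 48, 66 and 87.8 TPM in Control (log2 difference -0.23, 95% interval -0.91 to 0.45, adjusted p = 1 in limma, and 0.401 with the block). Adamts1 was at 106, 123 and 123 TPM with oxLDL and at 115, 121 and 162 TPM in Control (log2 difference -0.16, 95% interval -0.45 to 0.12, adjusted p = 1), and the difference was -0.01 without Control 3. Adamts4 was at 4.31, 2.61 and 4.04 TPM with oxLDL, against 3.64, 2.83 and 2.04 TPM in Control (log2 difference 0.28, 95% interval -0.17 to 0.73). Adamts2 ranged more widely with oxLDL, at 69, 60.4 and 88.7 TPM, than in Control, at 83, 72.3 and 69.7 TPM (log2 difference -0.06, 95% interval -0.36 to 0.25). Adamts9 was at 15.9, 29.7 and 22.3 TPM with oxLDL and at 16.6, 31.3 and 21.6 TPM in Control (log2 difference -0.03, 95% interval -0.68 to 0.63).

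The comparison of oxLDL with LDL is the direct test of whether the lipoproteins differed. None of the 10 genes passed in limma (0 of 10, and 0 at an unadjusted p under 0.05, where 0.104% of tested genes passed and 3.91% had such a p), and none passed with the block (0 of 10, where 0.259% did). The groups overlapped for all 10 genes (0 of 10 apart, against 8.31% of tested genes), and 5 of 10 kept one direction in all same-numbered pairs, against 31.5% of tested genes. Adamts5 was higher with oxLDL than with LDL at each number, by 0.27, 0.29 and 0.38 on the log2 scale (mean 57.5 ± 17.4 TPM with oxLDL and 45.8 ± 12.6 TPM with LDL, SD, n = 3 each). That difference of 0.31 did not pass (95% interval -0.37 to 0.99, adjusted p = 1 in limma, and 0.15 to 0.48, adjusted p = 0.2, with the block), and without the block it was 0.068 without LDL 1 and 0.58 without oxLDL 1. Adamts5 was therefore not shown to differ between the lipoproteins. Adamts1 (log2 difference 0.19, 95% interval -0.09 to 0.48) and Cd44 (0.14, -0.02 to 0.31) were also higher with oxLDL at each number and did not pass (adjusted p = 1 for both). Has1 (-0.13, -0.57 to 0.31) and Hapln1 (-0.09, -0.68 to 0.51) were lower with oxLDL at each number. Vcan (-0.15, -0.70 to 0.39), Has2 (-0.17, -0.86 to 0.51), Adamts2 (-0.06, -0.36 to 0.25), Adamts4 (-0.14, -0.59 to 0.31) and Adamts9 (0.02, -0.64 to 0.67) took no single direction.

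The replicate number accounted for more of the spread of several of these genes than the treatment did. For each gene the sum of squares of log2(TPM + 1) over the 9 libraries was split into the share of the number, of the treatment and of the rest, with medians of 44.2, 16.9 and 28.8% over all tested genes. The number took 99% in Adamts9, and only 3 of the 13495 tested genes had a larger number share. Adamts9 was at 15.9 to 16.6 TPM in the libraries numbered 1, at 28.6 to 31.3 TPM in those numbered 2 and at 21.6 to 22.3 TPM in those numbered 3, while its treatment share was 0.298%. Hapln1 had a number share of 91.2%, with 3.96 to 4.24, 1.97 to 2.39 and 3.21 to 4.21 TPM at numbers 1, 2 and 3. In Adamts5 the number took 70.6% and the treatment 27.4%, which left 2.02% for the rest, and 167 tested genes left less.

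Vcan, Has1 and Has2 had number shares of 60, 51.2 and 51.1%. The treatment took the larger share in Cd44 (53.1%), Adamts1 (51.2%) and Adamts4 (40.2%), and in Adamts2 most of the spread (74.8%) belonged to neither. Markers of other cell types differed between the numbers too. The sum of the 9 endothelial markers was 452 to 473 TPM at number 1, 203 to 213 TPM at number 2 and 235 to 325 TPM at number 3. The 9 macrophage and leukocyte markers summed to 428 to 620 TPM at number 1, 98.5 to 219 TPM at number 2 and 416 to 629 TPM at number 3. The 6 smooth muscle and pericyte markers summed to 75.8 to 86.3, 99.7 to 121 and 101 to 153 TPM at numbers 1 to 3. By number the 9 cardiomyocyte markers summed to 34.6 to 65.4, 10.5 to 19.2 and 10.3 to 24.3 TPM. For the 6 melanocyte markers the sums were 10.5 to 20.2, 3.3 to 6.02 and 5 to 15.8 TPM. The part of these lists in the number shares of Adamts9, Hapln1 and Adamts5 was not tested.

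**Figure D3:**
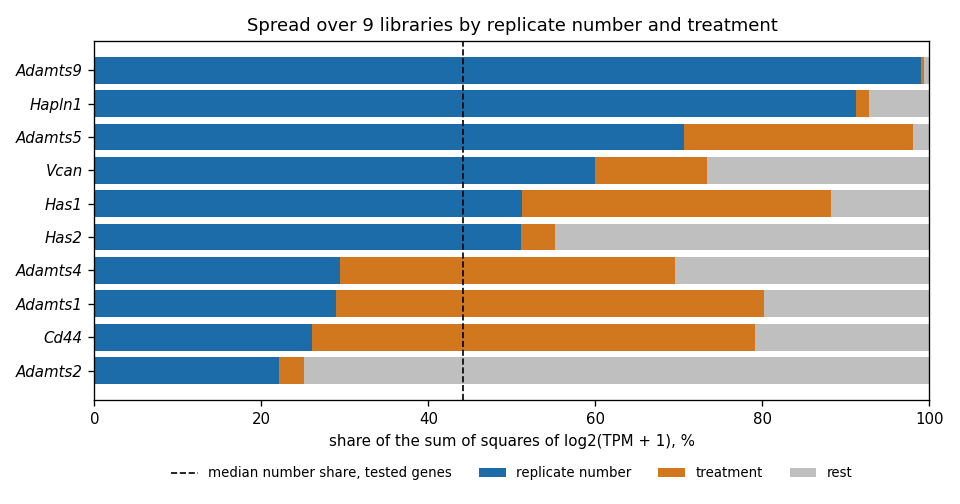
Share (x axis, %) of the spread of log2(TPM + 1) over 9 libraries that went with the replicate number, the treatment or neither, for each of the 10 genes. The dashed line marks the median number share of 44.2% over all tested genes, and Adamts9 stood at 99%.

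Over the 9 libraries the genes whose log2(TPM + 1) ran most like that of Vcan, among 8321 with a mean of at least 10 TPM, were Arnt (Pearson r 0.97), Wnt5a (0.96) and Rbms3 (0.96). Those most like Has2 were Ifnar2 (0.97), Tmem176a (0.96) and Dolk (0.96), and Has2 itself had an r of 0.82 with Vcan. The 9 points share 3 replicate numbers and 3 treatments, so these values are a description, and 41 and 26 of the genes compared reached an r of 0.9 with Vcan and with Has2.

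Adamts1, Adamts2, Adamts4, Adamts5 and Adamts9 made up most of the ADAMTS transcripts. Of 19 ADAMTS genes in the table these 5 held 80 to 86% of the summed TPM in each library. Adamts1 alone held 32.3 to 40.6%, Adamts2 17.5 to 28.7%, Adamts5 11.2 to 22% and Adamts9 5.15 to 9.03%. Adamts10, which binds fibrillin microfibrils, and Adamts7, which cuts cartilage oligomeric matrix protein, followed with means of 28.4 and 18.5 TPM, above the 3.52 TPM of Adamts4. The other 12 genes had means of 0.00222 to 3.83 TPM.

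**Figure D4:**
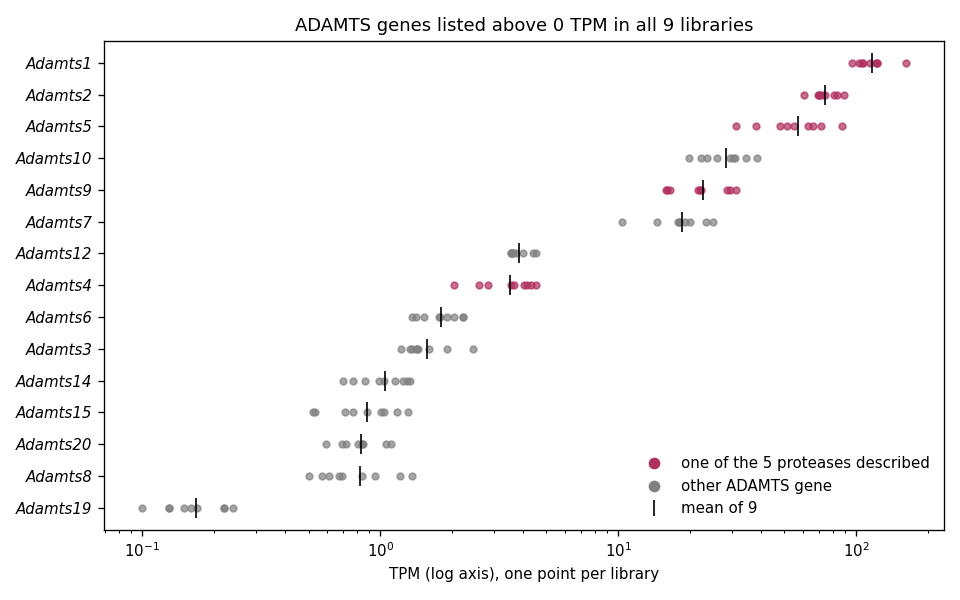
TPM on a log axis (x) of the 15 ADAMTS genes listed above 0 in all 9 libraries, with 1 point per library and a black tick at the mean of 9. Adamts1 led with 96.5 to 162 TPM, and the points of Adamts9 fell into 3 clusters that match the replicate numbers.

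Of 21 other ADAMTS and ADAMTS-like genes 10 were tested, and 0 passed in limma in any comparison, with or without the block. At an unadjusted p under 0.05 there was 1 of them for LDL against Control, 0 when oxLDL was set against Control and 1 when it was set against LDL, where 6.65, 3.86 and 3.91% of tested genes had such a p. Adamtsl3 and Adamtsl5, secreted proteins that resemble ADAMTS enzymes but lack the protease domain, had the highest means (94.8 and 41.9 TPM). The largest differences were those of Adamts7 for LDL against Control (0.36), Adamtsl3 for oxLDL against Control (-0.21) and Adamtsl4 for oxLDL against LDL (0.22), with adjusted p of 0.956, 1 and 1. The Adamts7 difference was 0.0882 without Control 3 and 0.68 without Control 2, and that of Adamtsl3 was -0.0645 without oxLDL 1. For LDL against Control the groups did not overlap for 1 gene higher and 1 lower of the 10, against 10.7% of tested genes. The higher was Adamts6, near the filter, at 1.91, 2.24 and 2.04 TPM with LDL and 1.42, 1.76 and 1.36 TPM in Control. The lower was Adamtsl4, at 17.56, 18.77 and 22.05 TPM with LDL and 24.56, 23.71 and 26.02 TPM in Control. The list's smallest adjusted p in that comparison was 0.316 in limma, and 0.0761 with the block. The list's median log2 differences were -0.03, -0.07 and 0.00, beside 0.00 for all tested genes in each comparison.

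Among the lists of related genes described here, only hyaluronan breakdown and binding genes held calls, all of them with the block. Of 26 symbols 25 were in the table and 17 were tested, while Hyal4, Spam1 and Itih1 were listed at 0 in all libraries. Without the block 0 passed in limma in any comparison, and 3, 0 and 3 of the 17 had an unadjusted p under 0.05 in the same order of comparisons, where 6.65, 3.86 and 3.91% of tested genes did. With the block 1 passed for LDL against Control, 0 for oxLDL against the same Control libraries, and 2 between the lipoproteins, where 0.852, 0.126 and 0.259% of tested genes passed. The medians were 0.03, -0.02 and -0.09.

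Cemip, which encodes a protein needed for the depolymerisation of hyaluronan, was at 211, 269 and 215 TPM with oxLDL, against 155, 171 and 150 TPM with LDL. All oxLDL libraries lay above all LDL libraries, and Control stood between at 175, 215 and 200 TPM. The log2 difference of 0.54 (95% interval 0.28 to 0.79) passed only with the block (adjusted p = 0.327 in limma without it and 0.0291 with it), a 1.46-fold higher level. With the block and 1 library left out it kept its call in 2 of 9 fits, without oxLDL 3 (adjusted p = 0.0469) or Control 3 (0.0245), and over the other 7 the adjusted p was 0.0634 to 0.24.

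Ptx3, a pentraxin that crosslinks hyaluronan in the matrix around the ovulated egg in mice, had the highest mean of the list (1211 TPM). It was at 1138, 1623 and 1441 TPM with oxLDL, against 838, 1235 and 1118 TPM with LDL. The groups overlapped, but each number was higher with oxLDL by 0.37 to 0.44 on the log2 scale. The difference of 0.40 passed only with the block (adjusted p = 1 in limma without it and 0.0439 with it), and lost its call in all 9 fits with the block and 1 library left out (adjusted p 0.0545 to 0.356). All 9 macrophage and leukocyte markers had a lower mean of log2(TPM + 1) with oxLDL than with LDL (median log2 difference -0.23, 0 passing). By mean TPM Cd68 and Aif1 were instead higher with oxLDL (38.6 and 1.73 TPM, against 37.6 and 1.61 TPM with LDL). The 9 summed to 98.5 to 629 TPM with oxLDL and 219.2 to 620 TPM with LDL, and their part in Cemip and Ptx3 was not tested.

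Layn, layilin, a membrane receptor for hyaluronan, was at 156, 176 and 198 TPM with LDL, against 128, 122 and 137 TPM in Control. The groups did not overlap, and oxLDL stood between at 146, 136 and 149 TPM. The log2 difference of 0.45 (95% interval 0.24 to 0.66) passed only with the block (adjusted p = 0.143 in limma without it and 0.0367 with it), a 1.37-fold higher level. With 1 library left out as well it kept its call in 2 of 9 fits, without oxLDL 3 (adjusted p = 0.0359) or LDL 1 (0.0213), with 0.0587 to 0.238 in the other 7. Lyve1, the hyaluronan receptor of lymphatic endothelium and some macrophages, had the largest difference of the list for LDL against Control (-0.83, 3.48 ± 0.892 TPM with LDL and 7.07 ± 2.35 TPM in Control, SD, n = 3 each) and for oxLDL against Control (-0.51), and did not pass (adjusted p = 0.408 and 1 in limma).

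**Figure D5:**
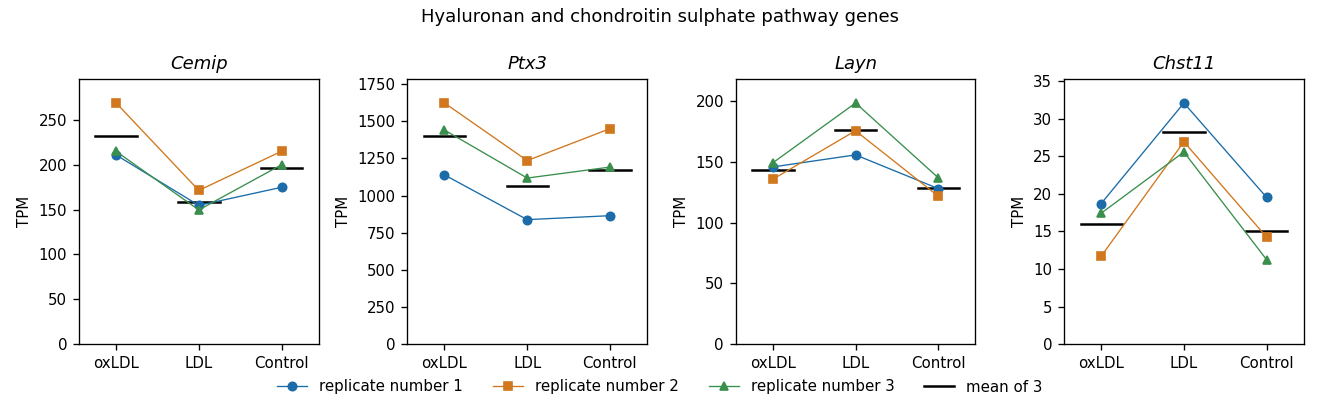
Level in TPM (y axis, from 0) of Cemip, Ptx3, Layn and Chst11 in the oxLDL, LDL and Control libraries (x axis), with lines joining libraries of the same replicate number and bars at the mean of 3. Cemip and Ptx3 were higher with oxLDL than with LDL along all 3 lines, and Layn and Chst11 were highest with LDL.

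Of 9 genes that supply the sugar precursors of hyaluronan, with the synthase Has3, 8 were tested, and 0 passed in limma in any comparison, with or without the block. At an unadjusted p under 0.05 there were 0, 0 and 1 of the 8, against 6.65, 3.86 and 3.91% of all tested genes. Ugdh, which makes the glucuronic acid donor, and Gfpt2, which opens the glucosamine branch, had the highest means (406 and 125 TPM), while Has3 stood below the 1 TPM filter. Gfpt2 had the largest differences for LDL against Control (0.26, adjusted p = 0.853) and oxLDL against LDL (-0.35, adjusted p = 1), and Ugp2, which makes UDP-glucose, for oxLDL against Control (-0.11, adjusted p = 1). The medians were 0.07, 0.02 and -0.04.

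Of 28 related proteoglycan, link protein and chondroitin sulphate assembly genes 20 were tested, and 0 passed in limma in any comparison, with or without the block, with 3, 1 and 1 of the 20 at an unadjusted p under 0.05, against 6.65, 3.86 and 3.91% of all tested genes. Chpf and Chpf2, polymerising factors of the chondroitin chain that versican carries, had the highest means (102 and 87.1 TPM). Chst11, a chondroitin sulphotransferase, was at 32.1, 26.9 and 25.6 TPM with LDL, against 19.5, 14.2 and 11.2 TPM in Control, and at 18.7, 11.7 and 17.4 TPM with oxLDL. LDL lay above the other groups in every library, by 1.88-fold over the Control mean, but the log2 difference of 0.89 did not pass (95% interval 0.41 to 1.38, adjusted p = 0.231 in limma, and 0.054 with the block). Its difference for oxLDL against LDL was -0.80 (adjusted p = 0.592), and Chpf2 had the largest for oxLDL against Control (0.25, adjusted p = 1). The medians were -0.01, 0.00 and -0.01.

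All 17 regulators, partners and substrates were tested, and 0 passed in limma in any comparison, with or without the block, with 2, 0 and 2 of the 17 at an unadjusted p under 0.05, against 6.65, 3.86 and 3.91% of all tested genes. Fbln2, a versican-binding fibulin, and Col3a1, a procollagen substrate of ADAMTS2, had the highest means (1799 and 1365 TPM). Fbln1, a fibulin that binds versican and acts as a cofactor of ADAMTS1, had the largest difference for LDL against Control (0.52, 177 ± 16.9 TPM with LDL and 126 ± 36.1 TPM in Control, SD, n = 3 each, adjusted p = 0.646, and 0.32 without Control 3) and for oxLDL against LDL (-0.46, adjusted p = 1). Tnc, tenascin-C, had the largest for oxLDL against Control (0.31, adjusted p = 1, and 0.15 without oxLDL 1). The medians were -0.03, 0.03 and -0.04.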

How the data were processed

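The authors deposited TPM values in 1 table, made with STAR (no version given) and RSEM 1.3.1 on mm10, per the submitters' processing notes. The annotation and counting settings are not given in the sources used here. Per the labels' protocols, 50 ng of total RNA gave amplified cDNA, a kit without strand marking made the libraries, and reads were 100 bp pairs. RSEM shares out reads that match several genes, so near-identical copies and overlapping genes are less certain. TPM keeps no depth, and 0 columns were left out.

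Values were analysed as log2(TPM + 1), which understates changes of low genes, for genes averaging 1 TPM or more (38315 left out). Two-sided tests were run with limma 3.58.1 (R 4.3.3), its eBayes prior following the mean level, over all 9 libraries with 6 residual degrees of freedom (4 with the block), Benjamini-Hochberg adjustment over all tested genes and a threshold of 0.05. Exact permutation of 3 against 3 libraries can give no p smaller than 0.1 and was not used. The fit without the block was tested on simulated data that held no effect of the replicate number. The fit with the block was not tested in that way.

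The numbers in the sample titles pair the libraries by a check of the data, not by a stated culture or day: deviations from the group means over all tested genes correlated at 0.172 to 0.497 in the 9 same-numbered pairs and at -0.309 to 0.13 in the 18 others. By number the same-numbered values were 0.472 to 0.497 at number 1, 0.172 to 0.346 at number 2 and 0.172 to 0.278 at number 3. The pairing was thus weaker at numbers 2 and 3, where oxLDL 2 with Control 3 reached 0.13. Deviations sum to 0 within a group, so positive same-numbered values go with lower values in the other pairs. The 10 genes, the lists and the rule for naming genes were chosen with earlier results of these data known. From each list the rule named genes that passed, the 2 of highest mean and the largest difference per comparison. Alternatives were other pseudocounts, filters, scalings and priors, the replicate block, and leaving out each library. Positions are from GENCODE M21 (91.9% of table symbols found). Start regions are from RefSeq on GRCm38.p6. A result on 1 overlapping gene is not reported here.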

Additional observations from a re-analysis of the deposited data

How the results depend on the processing

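Differences of the 10 genes kept their direction in all 3 comparisons with pseudocounts of 0.1 or 5, without a filter, with a minimum mean of 5 TPM (which leaves out Has1, Hapln1 and Adamts4), with quantile normalization or median-ratio scaling, with only the 6 libraries compared, and without the trend. No scaling moved the median of all genes by 0.1 or more. None of the 10 passed under any of these. With the replicate block 1 of the 10 passed for LDL against Control (Adamts5, -0.54). In the related lists Layn passed in the same comparison (0.45), and Cemip (0.54) and Ptx3 (0.40) passed for oxLDL against LDL. The block changed no other call of a gene named here.

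Leaving out each library in turn changed the direction of small differences. For LDL against Control the ranges were -0.0455 to 0.47 in Has2, -0.0421 to 0.057 in Cd44, -0.23 to 0.21 in Hapln1, -0.0567 to 0.0719 in Adamts2 and -0.25 to 0.19 in Adamts9. For oxLDL against Control they were -0.12 to 0.31 in Vcan, -0.24 to 0.30 in Has2, -0.32 to 0.10 in Hapln1, -0.21 to 0.0641 in Adamts2, -0.45 to 0.0382 in Adamts5 and -0.24 to 0.20 in Adamts9. For oxLDL against LDL they were -0.39 to 0.0307 in Vcan, -0.27 to 0.0324 in Has1, -0.37 to 0.0116 in Has2, -0.27 to 0.0663 in Hapln1, -0.21 to 0.066 in Adamts2, -0.25 to 0.0318 in Adamts4 and -0.19 to 0.24 in Adamts9. None of the 10 genes passed in any of the 9 fits without the block.

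The count of all genes called for LDL against Control was 45, and 19 without a filter, 9 with only the 6 libraries, 115 with the block and 4 to 37 with 1 library left out. For oxLDL against Control it was 2, and 10 without a filter, 17 with the block, 1 with a pseudocount of 5, with the 6 libraries or without the trend, and 1 to 3 with 1 left out. For oxLDL against LDL it was 14, and 8 without a filter or without the trend, 6 with the 6 libraries, 35 with the block and 1 to 10 with 1 left out. The cause of these changes was not tested. Depth is unknown, and low genes such as Has1, Hapln1 and Adamts4 carry unstated counting error.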
